A study of Mus musculus with 3 samples.

Results

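The disease-associated microglia set held 10 genes: Trem2, Tyrobp, Axl, Itgax, Lyz2, Cd68, Cst7, Spp1, Lpl and Cd9. They were picked by symbol from the 31053 genes of the deposited tables, and each symbol matched 1 gene. Their RNA was read in 3 mouse brain sections on 10x Visium arrays, which capture polyadenylated RNA under a grid of barcoded spots and count molecules by unique molecular identifiers (UMIs). The mice were C57BL/6J, brains were fresh frozen, and sections were 10 µm thick, fixed in methanol and stained with haematoxylin and eosin. There was 1 section per group. Y-Ctrl and O-Ctrl carry the treatment label Control, and O-Ex carries Exercise. The series is about exercise and brain ageing, but what Y and O stand for, the ages, the kind and length of exercise and how many animals were used are left unsaid in the labels. The molecule is labelled nuclear RNA, although whole sections were laid on the array.

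Microglia are the resident macrophages of the brain and clear debris, including fragments of myelin. In ageing, demyelination and neurodegeneration some of them take on a state known from single-cell work as disease-associated, in which genes for lipid sensing, lysosomal digestion and secreted factors are high and genes typical of resting microglia are low. TREM2, a receptor for lipids and lipoproteins, signals through its adaptor TYROBP (DAP12), and the full state is known to depend on it. White matter is rich in myelin lipid and is known as a place where such cells gather in old mice. A Visium spot holds several cells, so every level below belongs to a spot or a region. With 1 section per group there is no spread between animals and no test: every interval below is an exact 95% interval that covers counting error only. Fewer cells of a type and less RNA per cell cannot be told apart in such data.

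Total depth was 53196124 to 62348064 UMIs per section. Spots with at least 3000 UMIs were used: 3409, 3498 and 3332 of them in Y-Ctrl, O-Ctrl and O-Ex, with medians of 15718, 14900 and 13685 UMIs. They held 97.49% to 98.14% of each section's UMIs, and 17.8% to 19.7% of their UMIs were from mitochondrially encoded genes. All 3 sections list the same 4992 array barcodes. The 4 Y-linked genes checked had at most 2 UMIs in any section, and Xist was read in all 3. Levels are in CPM, a gene's UMIs per 1000000 UMIs of the section or region. The sections did not cut the same tissue: spots of the hypothalamus region numbered 146, 353 and 301 in Y-Ctrl, O-Ctrl and O-Ex, and striatum had 32 spots in O-Ex against 171 and 180. Comparisons of whole sections are therefore given beside comparisons within 14 regions that each had at least 50 spots in every section.

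Regions were clusters of spots made without the members, the wider and partner lists described below, and astrocyte, immune and sex-linked markers. Markers of other cells, oligodendrocytes among them, could be used. A region was named where at least 3 of its markers were among its 30 leading genes. White matter, with Mal and Cldn11 among its first 3 genes and 12 of 12 markers among the leading genes, held 371, 404 and 334 spots in Y-Ctrl, O-Ctrl and O-Ex. The region named meninges by 7 markers (Ptgds in the lead) also had the haemoglobin genes Hba-a1 and Hba-a2 among its first 3 genes, so blood is part of it.

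The microglial label was checked against where each gene was read. Across the 42 combinations of region and section, which share libraries and depth, Trem2 was most like C1qb (Pearson r = 0.94) and Tyrobp most like C1qa (r = 0.97). Both partners encode chains of complement C1q, made in brain mainly by microglia. Cst7 was most like Tyrobp (r = 0.87), closely followed by Serpina3n (r = 0.86). Itgax was most like Cst7 (r = 0.85) and Cd68 most like Mpeg1 (r = 0.84), a macrophage gene for a pore-forming protein. Lyz2 was most like C4b (r = 0.94), followed by Cxcl16 (r = 0.93) and Capg (r = 0.91). In Y-Ctrl Lyz2 was highest in meninges (75.6 CPM), so for it the label holds only in part. The other 4 genes also followed other tissue, and for them too the label holds only in part. Spp1 was most like Ptgds (r = 0.86), a gene of the meninges and of oligodendrocytes. Axl was most like Apoe (r = 0.85) and Aqp4 (r = 0.85), the water channel of astrocytes. Cd9 was most like Cd82 (r = 0.96) and Srebf1 (r = 0.96). Lpl was most like S100a6 (r = 0.80), and its r with Cd9 (0.21) was the lowest among the 45 pairs of members, of which Trem2 and Tyrobp were the closest (r = 0.93).

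RefSeq promoters of build GRCm38.p6 were available for 8 of the 10 members. In the 250 bases before the transcription start, GAGGAA, the core of sites bound by the macrophage and microglia factor PU.1, was looked for on both strands (TTCCTC on the other). It was found in 4 of the 8 (Trem2, Spp1, Axl and Cd68, 1 copy each), against 23.3% of 32851 promoters. The share over all is per promoter, while the 8 genes have 9 promoters, since Spp1 has another that lacks the motif. CACGTG, the core of sites bound by TFEB-type lysosomal regulators, was in 0 of 8, against 6.02% of all promoters. These motifs do not overlap one another. A match is only a match of letters, and no other spelling of either site was looked for. Windows of 4 members follow: Trem2 and Cd68, which hold the motif and were higher in both O sections, Axl, which holds it and was at least 1.5-fold higher in O-Ctrl in white matter but not over the section, and Cst7, which had the largest ratio and lacks it. Capitals mark the motif. The windows are chr17:48346151-48346400 (plus strand) for Trem2, chr11:69666171-69666420 (minus) for Cd68, chr7:25788734-25788983 (minus) for Axl and chr2:150570165-150570414 (plus) for Cst7.
Trem2: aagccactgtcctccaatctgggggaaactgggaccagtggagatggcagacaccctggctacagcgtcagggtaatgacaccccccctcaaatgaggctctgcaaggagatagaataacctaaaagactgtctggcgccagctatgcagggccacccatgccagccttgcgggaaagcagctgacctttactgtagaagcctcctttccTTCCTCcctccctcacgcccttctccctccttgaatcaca
Cd68: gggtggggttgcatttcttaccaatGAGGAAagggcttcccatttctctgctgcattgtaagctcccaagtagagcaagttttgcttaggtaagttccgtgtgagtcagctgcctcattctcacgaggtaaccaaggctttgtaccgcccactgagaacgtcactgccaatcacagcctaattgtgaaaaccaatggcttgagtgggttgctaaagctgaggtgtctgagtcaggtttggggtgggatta
Axl: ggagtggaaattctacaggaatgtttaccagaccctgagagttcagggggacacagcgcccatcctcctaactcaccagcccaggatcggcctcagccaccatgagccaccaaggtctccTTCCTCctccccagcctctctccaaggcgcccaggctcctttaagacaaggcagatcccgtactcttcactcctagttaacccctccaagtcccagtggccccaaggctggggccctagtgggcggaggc
Cst7: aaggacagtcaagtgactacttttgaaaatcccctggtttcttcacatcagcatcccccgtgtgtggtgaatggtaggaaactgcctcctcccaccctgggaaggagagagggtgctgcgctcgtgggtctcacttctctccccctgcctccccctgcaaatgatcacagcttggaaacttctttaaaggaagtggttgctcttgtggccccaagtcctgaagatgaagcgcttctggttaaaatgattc

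Over whole sections, 7 of the 10 members were at least 1.5-fold higher in O-Ctrl than in Y-Ctrl, on log2(CPM + 1), and 0 were that much lower. Among 13874 genes averaging 1 CPM or more, 1.24% were that much higher and 0.562% lower. The members' median log2 ratio was 0.70, against -0.0048 for all those genes. Of the members 9 reach that mean, Cst7 only through the O sections, and Itgax, at 0.998 CPM, just misses it, but counts and medians here cover all 10. Within the 14 regions, weighted equally, 5 members were at least 1.5-fold higher (Trem2, Lyz2, Cst7, Itgax and Cd68), against 0.858% of all genes, and 0 lower (0.296%), with a median log2 ratio of 0.55 against -0.0092. The sections O-Ctrl and O-Ex share Y-Ctrl as their control, and O-Ctrl itself is the control of O-Ex, so the comparisons are not independent. In O-Ex over Y-Ctrl, 7 members were at least 1.5-fold higher over whole sections (3.85% of all genes, with 0.728% lower) and 8 within regions (1.51%, 210 genes higher, and 0.267%, 37 genes, lower), and 0 members were that much lower in either. With TMM scaling, which sets the sections level on the bulk of genes, these became 5 members, 143 genes and 66. Without white matter, 3 members stayed at least 1.5-fold higher in O-Ctrl within regions (0.829% of all genes), and Trem2 and Itgax were just under (0.55 and 0.53 on the log2 scale).

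**Figure D1:**
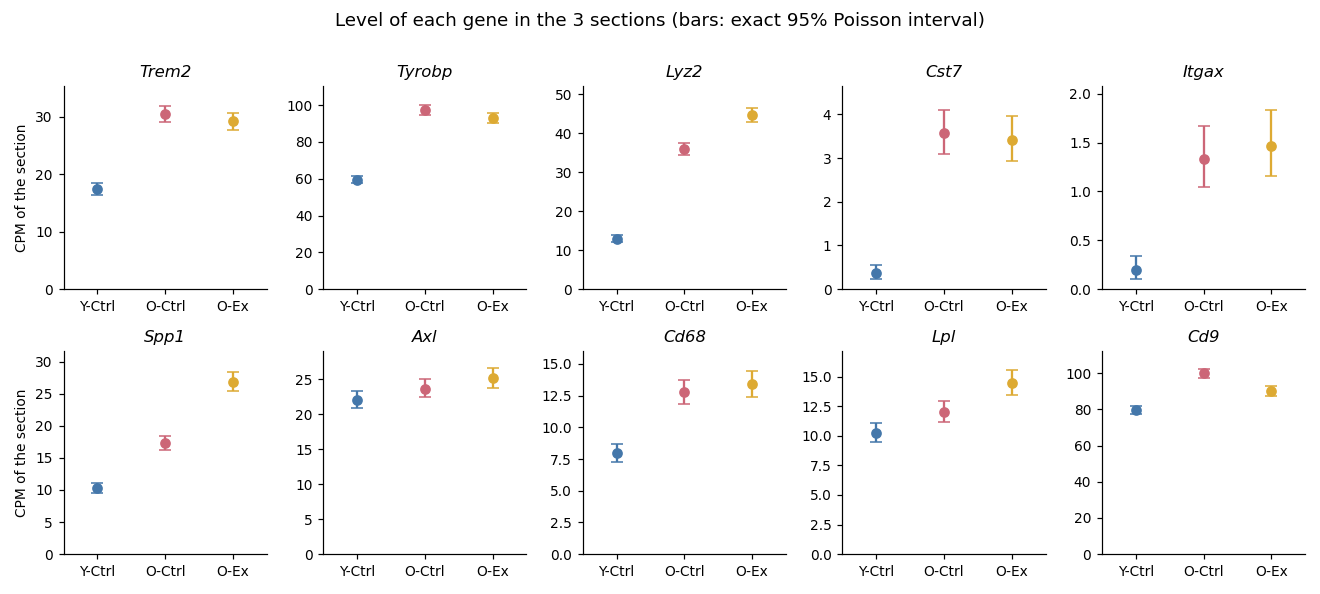
Level of each gene over the whole section in CPM (y axis, from 0) for Y-Ctrl, O-Ctrl and O-Ex (x axis); points are sections and bars exact 95% Poisson intervals. Cst7 and Itgax sit near 0 in Y-Ctrl (0.360 and 0.196 CPM), while Axl lies between 22.1 and 25.2 CPM in all 3 sections.

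Among the receptors, Trem2 (chr17:48346401-48354147, plus strand, GRCm38, as are all positions here) was at 17.4 CPM in Y-Ctrl (1067 UMIs), 30.4 in O-Ctrl and 29.2 in O-Ex. O-Ctrl was 1.75-fold higher than Y-Ctrl (1.62 to 1.89). Its adaptor Tyrobp (chr7:30413760-30417585, plus), which also serves other activating receptors, was at 59.4, 97.3 and 93.1 CPM, a ratio of 1.64 (1.57 to 1.71). Receptor and adaptor thus had both O sections above Y-Ctrl by like factors. Itgax (chr7:128129547-128150657, plus), the integrin alpha X chain CD11c, was scarce, with 12, 76 and 76 UMIs (0.196, 1.33 and 1.47 CPM), and its ratio of 6.80 in O-Ctrl over Y-Ctrl has a wide interval (3.67 to 13.7). Axl (chr7:25757273-25788705, minus), a receptor tyrosine kinase of the TAM family used in engulfing dead cells, was at 22.1, 23.7 and 25.2 CPM. Its ratio of 1.07 had an interval (0.993 to 1.16) that includes 1.

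Of the lysosomal genes, Cst7 (chr2:150570415-150578944, plus), which encodes cystatin F, an inhibitor of cysteine cathepsins, had the highest ratio of the set: 0.360 CPM in Y-Ctrl (22 UMIs), 3.58 in O-Ctrl (204) and 3.41 in O-Ex (177), 9.95-fold between the control sections (6.40 to 16.2). Lyz2 (chr10:117277331-117282321, minus), the lysozyme of macrophages, was at 12.9, 36.0 and 44.6 CPM, 2.78-fold higher in O-Ctrl (2.56 to 3.03). Lyz2 has a near-identical copy, Lyz1, so how reads were shared between them is uncertain. Cd68 (chr11:69664213-69666153, minus), a glycoprotein of macrophage lysosomes, was at 7.94, 12.8 and 13.4 CPM, a ratio of 1.61 (1.43 to 1.81). In all 3 genes the intervals of both O sections lay above that of Y-Ctrl.

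Among the secreted and surface proteins, Spp1 (chr5:104435118-104441050, plus), which encodes osteopontin, was at 10.3, 17.2 and 26.9 CPM, the clearest step between O-Ctrl and O-Ex of the set. Lpl (chr8:68880491-68907448, plus), the lipase that frees fatty acids from lipoproteins, was at 10.2, 12.02 and 14.5 CPM, with a ratio of 1.18 in O-Ctrl over Y-Ctrl (1.05 to 1.31). Cd9 (chr6:125460266-125494791, minus), a tetraspanin also made by oligodendrocytes, was at 79.5, 99.8 and 90.1 CPM, a ratio of 1.26 (1.21 to 1.31). Lpl and Cd9 were thus higher in O-Ctrl by less than 1.5-fold over the section.

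White matter held 6.64%, 8.13% and 6.37% of all UMIs in Y-Ctrl, O-Ctrl and O-Ex, but larger shares of most of these genes. Of all Cst7 UMIs 11 of 22 lay there in Y-Ctrl, and 64.7% and 37.9% in O-Ctrl and O-Ex. For Itgax these were 6 of 12, 38 of 76 and 36 of 76, and for Trem2 the shares were 18.2%, 31.4% and 26.1%. Among the 14 regions white matter had the highest level of Trem2, Tyrobp, Cst7, Itgax, Cd68 and Cd9 in all 3 sections. For Trem2, Tyrobp and Cd9 its interval lay above that of the second region in every section; for Cst7, Itgax and Cd68 only in O-Ctrl and O-Ex. Lyz2 was highest in meninges in Y-Ctrl (75.6 CPM, with white matter at 52.9) and in white matter in both O sections.

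**Figure D2:**
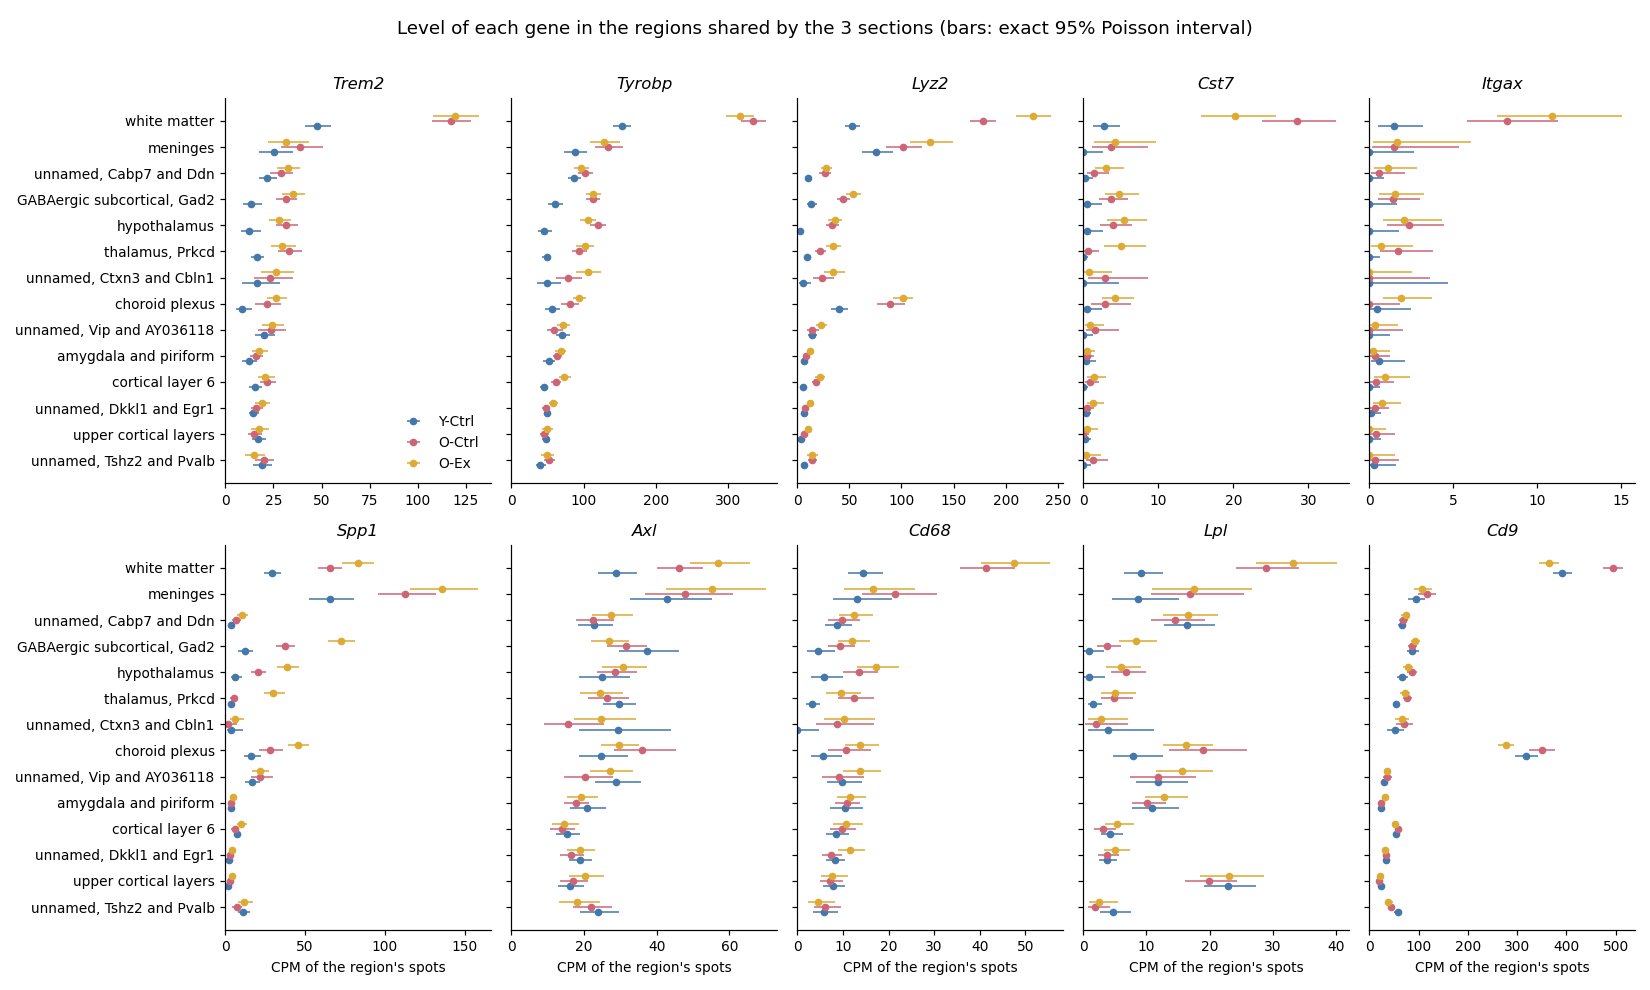
Level of each gene in CPM (x axis, from 0) in the 14 regions shared by the sections (y axis), with Y-Ctrl, O-Ctrl and O-Ex as colours and exact 95% Poisson intervals as bars. White matter stands to the right for Trem2 (47.7, 117 and 119 CPM) and Tyrobp, and meninges for Spp1 (65.4, 113 and 136 CPM).

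A few spots carried much of the white matter signal of Y-Ctrl. A single white matter spot of 12528 UMIs held 114 of the 215 Lyz2 UMIs, 85 of the 119 Spp1 UMIs, 5 of 11 Cst7 UMIs and 4 of 6 Itgax UMIs, together with 55 of Tyrobp and 16 of Trem2. The same spot had 90 UMIs of the 15 homeostatic microglia genes, against a median of 10 over all spots, 1 UMI of border macrophage markers and 0 of monocyte and neutrophil markers. In O-Ctrl the richest spot, also in white matter, held 118 Tyrobp, 41 Trem2, 44 Spp1 and 34 of 132 Cst7 UMIs and 271 homeostatic UMIs. The richest spot of O-Ex held 37 Tyrobp and 33 Lyz2 UMIs. White matter ratios are therefore given with and without the richest spot of each section, chosen by the UMIs of Trem2, Tyrobp, Lyz2, Cst7 and Itgax together.

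In white matter 9 of 10 members, all but Cd9, were at least 1.5-fold higher in O-Ctrl than in Y-Ctrl, against 8.82% of all genes, and 0 lower (3.86%), with a median log2 ratio of 1.37 against 0.04. In O-Ex over Y-Ctrl 9 were higher there too (14.0% of all genes) and 0 lower (4.43%). Trem2 was at 47.7, 117 and 119 CPM in Y-Ctrl, O-Ctrl and O-Ex. That is 2.46-fold between the control sections (2.08 to 2.91), or 2.48-fold without the richest spots. Outside white matter the Trem2 ratio was 1.49 (1.36 to 1.63), and the intervals inside and outside do not overlap. Tyrobp was at 153, 334 and 316 CPM, 2.19-fold (1.996 to 2.41), against 1.45 outside (1.38 to 1.52). The pair thus stood apart from Y-Ctrl more in white matter than in the pooled other spots.

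Lyz2 was at 52.9, 178 and 226 CPM in white matter. Its ratio of 3.36 in O-Ctrl over Y-Ctrl (2.89 to 3.93) became 6.84 (5.56 to 8.51) without the richest spots, since the level of Y-Ctrl then fell to 24.9 CPM. Outside white matter it was 2.32 (2.10 to 2.57). Cst7 was at 2.71, 28.5 and 20.3 CPM, a ratio of 10.5 (5.69 to 21.6), or 14.4 without the richest spots (6.36 to 40.04). Outside it was 7.14 (3.76 to 14.9), so for Cst7 the intervals overlap. Cd68, at 14.5, 41.4 and 47.5 CPM, had a ratio of 2.85 (2.12 to 3.89) inside and 1.37 (1.20 to 1.56) outside. Itgax, with 6, 38 and 36 UMIs, had a ratio of 5.55 (2.33 to 16.1), or 16.3 without the richest spots (4.19 to 139, from 37 UMIs against 2).

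For Lpl and Axl the ratio over all spots outside white matter was close to 1. Lpl was at 9.10, 28.9 and 33.3 CPM in Y-Ctrl, O-Ctrl and O-Ex, 3.18-fold between the controls (2.19 to 4.70), while outside white matter the ratio was 1.02 (0.907 to 1.15). That pooled ratio covers regions that differed: Lpl was 2.39-fold higher in choroid plexus (39 UMIs against 18), 3.09-fold in thalamus (17 against 9) and 7.04-fold in hypothalamus (26 against 2, with an interval of 1.76 to 61.3), and lower in hippocampal CA1 (28 against 79 UMIs, a ratio of 0.612). Of the 37 Lpl UMIs in Y-Ctrl white matter 17 lay in 1 spot, and without each section's richest Lpl spot the ratio was 5.14 (3.18 to 8.72). Without the spots richest in the 5 genes above it was 2.94 (1.998 to 4.42). Axl was at 28.8, 46.2 and 56.9 CPM, 1.60-fold (1.27 to 2.03), against 1.00 outside (0.925 to 1.09) and 1.46 in choroid plexus. Cd9 was at 392, 494 and 364 CPM, 1.26-fold (1.18 to 1.35), against 1.13 outside (1.08 to 1.19), and these intervals overlap narrowly. Spp1 was at 29.3, 65.4 and 82.9 CPM, 2.23-fold (1.80 to 2.78). Without the richest spots Spp1 in Y-Ctrl white matter dropped to 8.39 CPM and the ratio became 6.69 (4.67 to 9.87).

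**Figure D3:**
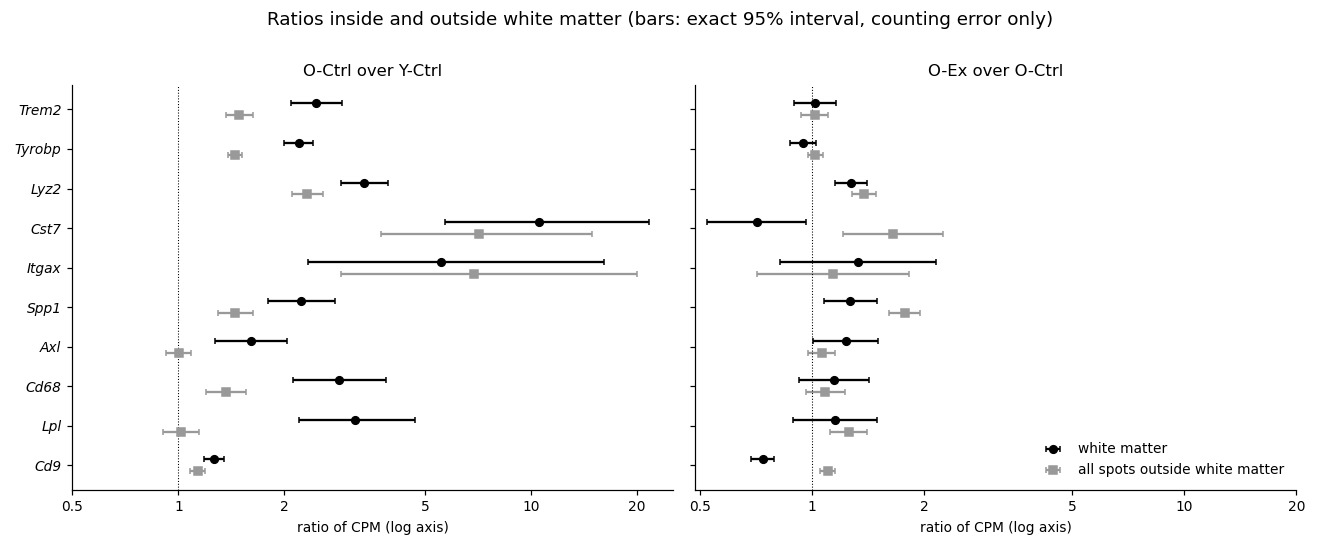
Ratio of CPM (x axis, log scale) for each gene (y axis) in O-Ctrl over Y-Ctrl (left) and O-Ex over O-Ctrl (right), inside white matter (circles) and in all other spots (squares), with exact 95% intervals. On the left Lpl lies at 3.18 inside and 1.02 outside; on the right Cst7 lies at 0.712 inside and 1.65 outside.

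**Figure D4:**
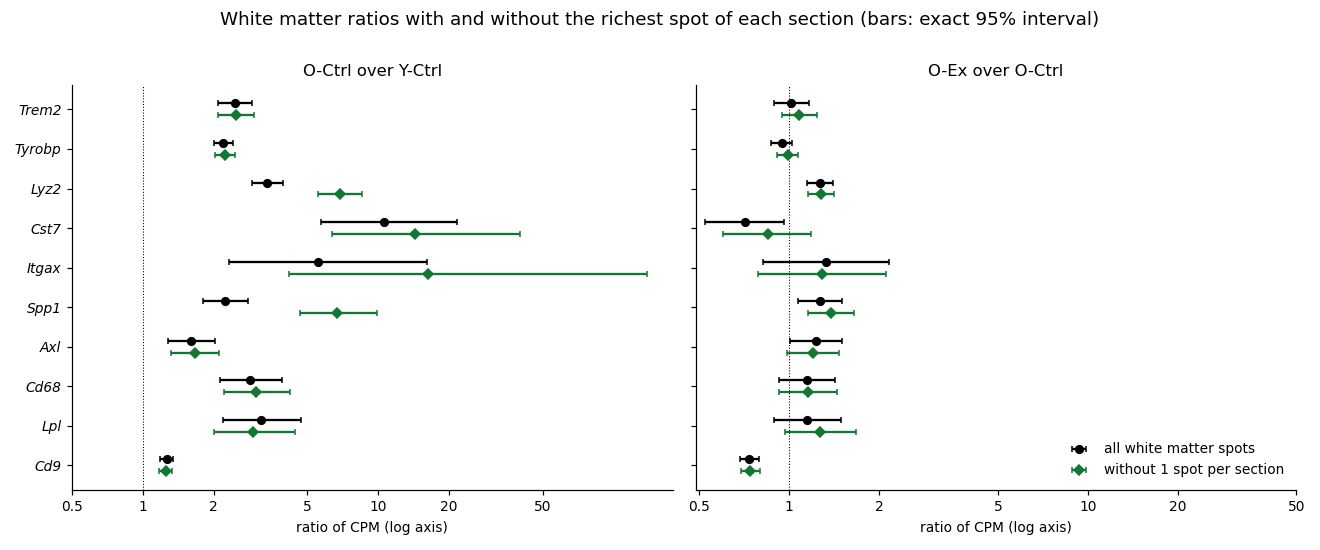
White matter ratios of CPM (x axis, log scale) for each gene (y axis) with all spots (circles) and without the richest spot of each section (diamonds), with exact 95% intervals, for O-Ctrl over Y-Ctrl (left) and O-Ex over O-Ctrl (right). Lyz2 moves from 3.36 to 6.84 and Spp1 from 2.23 to 6.69 on the left, while Trem2 stays at 2.46 and 2.48.

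Shares of spots with a UMI weigh each spot once, however many UMIs it holds. After each spot was thinned to 3000 UMIs, Trem2 was detected in 13.5% of white matter spots of Y-Ctrl (10.2% to 17.4%), 27.0% of O-Ctrl (22.7% to 31.6%) and 25.7% of O-Ex (21.1% to 30.8%). Unthinned, the shares were 32.4%, 58.2% and 53.9%. Tyrobp was detected in 28.6%, 49.3% and 55.7% of thinned spots, and Lyz2 in 7.01%, 30.7% and 34.4%. Spp1 went with them, at 1.35%, 9.90% and 14.97%. Cst7 was found in 2 of 371 spots of Y-Ctrl, 28 of 404 of O-Ctrl and 15 of 334 of O-Ex, and Itgax in 3, 11 and 9. For comparison, thinned spots outside white matter showed Trem2 in 5.04%, 7.14% and 7.41% and Cst7 in 0.0329%, 0.517% and 0.734%.

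How often spots with one gene also held Tyrobp differed by gene and section. Of the 28 thinned white matter spots of O-Ctrl with Cst7, 85.7% also had Tyrobp (67.3% to 96.0%), against 46.5% of the 376 without Cst7 (41.4% to 51.7%). With Trem2 the share was 71.6% of 109 spots, against 41.0% of those without. In O-Ex the shares for Trem2 were 69.8% and 50.8%. Those for Cst7 in O-Ex were 73.3% of 15 spots (44.9% to 92.2%) and 54.9% (49.2% to 60.4%), with intervals that overlap. In Y-Ctrl the shares for Trem2 were 28.0% of 50 spots and 28.7% of 321, with intervals that overlap. Some scarcer genes shared spots with Tyrobp in Y-Ctrl: it was read in 5 of 5 spots with Spp1, 5 of 6 with Lpl and 3 of 3 with Itgax. With Axl it was read in 27.0% of 37 spots there, against 28.7% without. With Cd9 it was read in 26.2% of 233 spots, against 32.6% without. Sharing a spot does not place transcripts in the same cell, and microglia number per spot was not measured.

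Without clusters, spots were sorted on the share of their UMIs from 10 oligodendrocyte markers, in 5 bins from under 0.5% to 4% and over. Trem2 was at 15.1 CPM in the lowest bin and 45.0 in the highest for Y-Ctrl, at 18.9 and 108 for O-Ctrl, and at 19.2 and 115 for O-Ex. The ratio of O-Ctrl over Y-Ctrl was 1.25 (1.13 to 1.39) in the lowest bin and 2.39 (1.92 to 3.002) in the highest. Tyrobp followed, with 1.29 (1.22 to 1.36) and 2.45 (2.16 to 2.78). Neither ratio rose evenly with myelin content. Both were largest in the bin from 1% to 2%, at 3.85 (2.79 to 5.41) for Trem2 and 2.62 (2.24 to 3.08) for Tyrobp. In the bin from 2% to 4% they were 2.28 and 1.68. Lyz2 was uneven too. Its ratio was 1.94 in the lowest bin, 4.75 from 1% to 2%, 1.84 from 2% to 4% and 7.58 in the highest. The bin from 2% to 4% holds the rich Y-Ctrl spot. Axl had ratios of 0.973, 0.936 and 1.11 in the 3 bins under 2%, and of 1.91 and 1.42 above. Spp1 had a ratio of 0.850 (0.648 to 1.12) from 2% to 4% and of 14.4 (7.80 to 29.5) in the highest bin. For Lpl these were 1.32 (0.807 to 2.18) and 4.61 (2.48 to 9.21). The intervals of Spp1 and Lpl from 2% to 4% thus include 1. Every section's homeostatic microglia genes also summed higher in myelin-rich spots, with 633 and 1013 CPM in the lowest and highest bins for Y-Ctrl, 571 and 1343 for O-Ctrl, and 580 and 1508 for O-Ex.

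**Figure D5:**
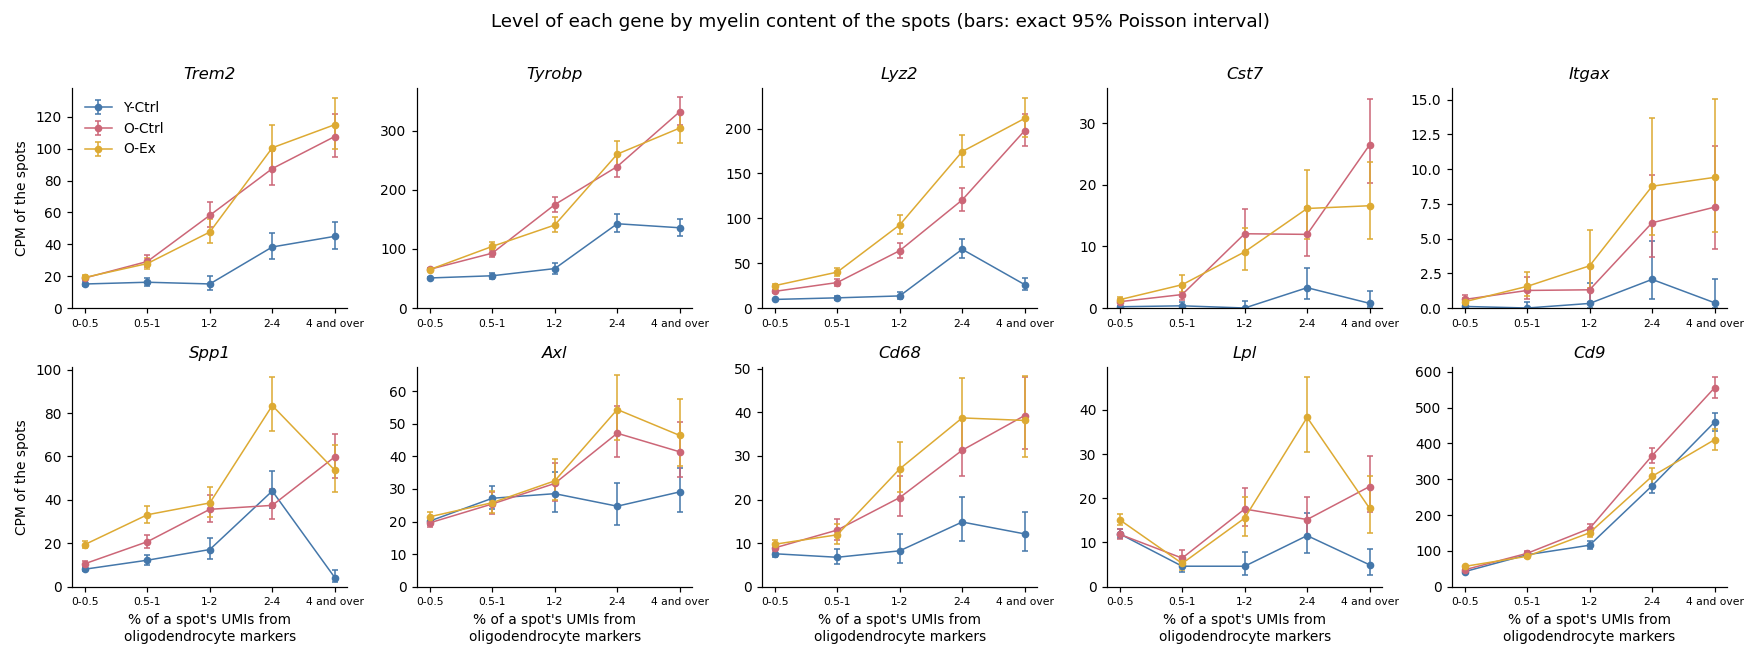
Level of each gene in CPM (y axis, from 0) in 5 bins of spots by the percentage of their UMIs from oligodendrocyte markers (x axis), for Y-Ctrl, O-Ctrl and O-Ex, with exact 95% Poisson intervals. The O sections separate from Y-Ctrl toward the right for Trem2 (108 and 115 CPM against 45.0 in the last bin).

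Outside white matter the difference depended on the region. In the upper cortical layers (Lamp5 in the lead) Trem2 was at 17.1, 15.1 and 17.6 CPM in Y-Ctrl, O-Ctrl and O-Ex, a ratio of 0.885 between the controls (0.641 to 1.22). Tyrobp there was at 47.4, 45.7 and 49.7 CPM (0.963, 0.7999 to 1.16) and Cd68 at 7.78, 7.12 and 7.70. The cortical surface layers thus showed no clear difference in Trem2, Tyrobp and Cd68 at this depth. Lyz2 was at 3.52, 6.29 and 10.2 CPM in these layers (19, 30 and 37 UMIs). Its interval in O-Ex (7.16 to 14.0) lay above that of Y-Ctrl (2.12 to 5.50). In the hypothalamus region (Pmch and Hcrt in the lead) Trem2 was at 12.5, 31.5 and 28.0 CPM, 2.52-fold between the controls (1.64 to 4.02), and Tyrobp at 45.6, 119 and 106 (2.61, 2.09 to 3.29). Lyz2 there had 5 UMIs in Y-Ctrl (2.40 CPM), 33.3 CPM in O-Ctrl and 35.8 in O-Ex, a ratio of 13.9 (5.79 to 43.5). These hypothalamic spots were 146 in Y-Ctrl and 353 in O-Ctrl, so the parts of the hypothalamus cut may differ, and that was not tested.

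A GABAergic subcortical region (Gad2 in the lead) had Trem2 at 13.5, 31.5 and 35.1 CPM, Tyrobp at 59.7, 112 and 113 and Lyz2 at 13.5, 43.8 and 53.6. In thalamus (Prkcd in the lead) Trem2 was at 16.6, 33.3 and 29.7 CPM (2.001, 1.51 to 2.66) and Cd68 at 3.18, 12.4 and 9.65 (3.91, 2.21 to 7.20). Cortical layer 6 lay between for Trem2, with 15.3, 21.8 and 20.8 CPM (1.42, 1.06 to 1.92), and for Tyrobp (1.36, 1.15 to 1.62). For Lyz2 its ratio of 3.04 (2.01 to 4.69) had an interval that overlaps those of thalamus (2.27, 1.58 to 3.29) and white matter. Counted over the 14 regions, O-Ctrl lay above Y-Ctrl in 14 for Lyz2, 13 for Trem2, 13 for Cst7, 11 for Tyrobp, 11 for Spp1, 11 for Cd68 and 10 for Itgax. The counts were 9 for Cd9, 7 for Lpl and 5 for Axl, and the region-matched log2 ratio of Axl was -0.06, or 0.10 and 0.07 with coarser and finer clusters and 0.05 with spots of at least 1000 UMIs.

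Several members were also read at high levels in border regions and in regions led by neuronal genes. In meninges Axl was at 42.9, 47.8 and 55.1 CPM and Lyz2 at 75.6, 102 and 128. In choroid plexus Cd9 was at 317, 350 and 277 CPM, second only to white matter, and Lyz2 at 39.7, 89.2 and 101. Lpl had its highest levels in hippocampal pyramidal spots, at 50.6, 31.0 and 45.2 CPM in Y-Ctrl, O-Ctrl and O-Ex in CA1 (27 to 33 spots a section). An unnamed cluster led by Hpca and Neurod6 gave 66.5, 69.6 and 72.2 CPM. In Y-Ctrl Spp1 was highest in a small cluster led by Trh and Pvalb, with 217 CPM in the 34 spots of Y-Ctrl, 33.4 CPM in the 20 spots of O-Ctrl and no spots in O-Ex. The whole-section Spp1 level of Y-Ctrl thus includes UMIs from a cluster with no spots in O-Ex.

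The exercise section was compared with O-Ctrl, its labelled control. Over whole sections 1 of 10 members, Spp1, was at least 1.5-fold higher in O-Ex (1.74% of all genes), and 0 were lower (0.317%). Within regions it was again Spp1 alone (0.476%), 1.62-fold higher, and in white matter 0 members were 1.5-fold higher (7.03%) or lower (3.86%). The members' median log2 ratio was 0.07 over whole sections, 0.15 within regions and 0.20 in white matter, against 0.08, 0.08 and 0.07 for all genes. With TMM scaling the whole-section medians were -0.0078 for the members and -0.00093 for all genes. The median of the set thus lay close to that of all genes in this comparison, and its members differed.

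Trem2 had a whole-section ratio of 0.960 in O-Ex over O-Ctrl (0.896 to 1.03) and 1.02 in white matter (0.892 to 1.16). Tyrobp had 0.957 (0.920 to 0.994) and 0.944 (0.872 to 1.02). Cd68 had 1.05 (0.946 to 1.17), or a log2 ratio of -0.02 with TMM scaling, and Itgax 1.10 (0.789 to 1.53), with intervals that include 1 in white matter too. Receptor, adaptor and the lysosomal glycoprotein thus differed by little between the O sections. Lyz2 was 1.24-fold higher in O-Ex (1.17 to 1.32), 1.27-fold in white matter (1.15 to 1.41), 1.38-fold outside, and in 13 of 14 regions. Lpl was 1.21-fold higher (1.09 to 1.34), in 12 of 14 regions.

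Cst7 went opposite ways inside and outside white matter. Inside it was at 28.5 CPM in O-Ctrl and 20.3 in O-Ex, a ratio of 0.712 (0.522 to 0.962), which without the richest spots was 0.846 with an interval that includes 1 (0.602 to 1.18). Outside, O-Ctrl had 72 UMIs and O-Ex 110, a ratio of 1.65 (1.21 to 2.25). In thalamus Cst7 had 0, 2 and 14 UMIs in Y-Ctrl, O-Ctrl and O-Ex. The count of 0 allows up to 0.530 CPM, and the O-Ex level was 5.003 CPM. Cd9 was lower in O-Ex in white matter, at 364 CPM against 494, a ratio of 0.736 (0.686 to 0.790). Pooled over all other spots it was higher (1.10, 1.05 to 1.15), but O-Ex lay above O-Ctrl in only 4 of 14 regions. Its region-matched log2 ratio was -0.07. Choroid plexus, rich in Cd9, had 104 spots in O-Ctrl and 184 in O-Ex, with Cd9 at 350 and 277 CPM. The part of region mix in the pooled ratio was not tested. Oligodendrocyte markers summed to 39477 CPM in O-Ctrl white matter and 41378 in O-Ex, so their total did not go with Cd9.

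Spp1 was 1.56-fold higher in O-Ex over the section (1.43 to 1.69), 1.53-fold without each section's richest Spp1 spot, and higher in 13 of 14 regions. On the log2 scale its whole-section ratio of 0.61 was 0.58 without mitochondrially encoded genes and 0.53 with TMM scaling, both just under 1.5-fold. In white matter the ratio was 1.27 (1.07 to 1.498), and on the log2 scale 0.34, or -0.19 with finer clusters. In thalamus it was at 3.36, 5.21 and 30.0 CPM in Y-Ctrl, O-Ctrl and O-Ex, a ratio of 5.77 (3.44 to 10.2). Of the 84 UMIs in O-Ex thalamus 33 were in 1 spot, and without the richest spots the ratio was 4.20 (2.33 to 8.05). The GABAergic region had 12.1, 37.3 and 72.7 CPM, 1.95-fold (1.60 to 2.38), or 1.98 without those spots. Choroid plexus had 16.3, 27.8 and 45.7 CPM, 1.65-fold (1.22 to 2.25). In the hypothalamus region the levels were 6.24, 20.6 and 38.8 CPM, but 89 of the 130 UMIs of O-Ex were in 1 spot. Without the richest spots that ratio was 0.684 (0.453 to 1.02), so the hypothalamus does not show a higher Spp1 level apart from that spot.

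Wider lists place the set among related genes. Of 28 other disease-associated microglia genes, 17 were at least 1.5-fold higher in O-Ctrl than in Y-Ctrl in white matter, 0 lower, with a median log2 ratio of 0.67, beside 8.82% and 3.86% of all genes. Over whole sections 9 were, beside 1.24% of all genes. Apoe, which carries lipid, was at 2268, 4736 and 5205 CPM in white matter of Y-Ctrl, O-Ctrl and O-Ex. Lgals3, a galectin, had 2.71, 31.3 and 33.3 CPM, and Gpnmb, a glycoprotein of lipid-laden macrophages, had 1.72, 11.4 and 15.1. Fth1, the ferritin heavy chain, differed little, at 29284, 29023 and 29117 CPM. Between O-Ex and O-Ctrl 0 of the 28 were higher in white matter and 1 was lower, beside 7.03% and 3.86% of all genes. The 1 lower gene was Ch25h, a cholesterol hydroxylase, with 18 UMIs in O-Ctrl and 6 in O-Ex. Ch25h and the genes Fcrls, Gpr34, Olfml3, Syk, Itga9 and Ptgfrn below are named because they make up a count, after their values were seen.

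The 15 homeostatic microglia genes, all measured, gave the level of microglial RNA that is not part of the set. Over whole sections and within regions 0 of 15 were 1.5-fold apart in any comparison, and their sum was 707, 727 and 740 CPM. In white matter 4 of 15 (Fcrls, Gpr34, Aif1 and Olfml3) were higher in O-Ctrl than in Y-Ctrl and 0 lower, and the sum was 1049, 1403 and 1539 CPM. P2ry12, the ADP receptor of resting microglia, was at 31.2, 24.0 and 22.1 CPM over the section and 48.5, 50.5 and 41.7 in white matter. Aif1, a calcium-binding protein of microglia also called IBA1, was at 34.7, 56.7 and 59.6 CPM in white matter. White matter of the O sections thus had more of both kinds of microglial RNA. How much of the members' ratio goes with the number of microglia was not tested.

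Partners of the members were counted in the same way, with 8.82% of all genes higher and 3.86% lower in white matter. Of 10 measured genes of TREM2 and TYROBP signalling, 0 were 1.5-fold apart between O-Ctrl and Y-Ctrl over whole sections, and 4 were higher (Inpp5d, Ptpn6 and Cd33 among them) and 1 lower (Syk, from 14 UMIs to 9) in white matter. Inpp5d, the lipid phosphatase SHIP1 that counters this signal, was at 4.67, 11.4 and 16.3 CPM in white matter, and Ptpn6, the phosphatase SHP1, at 7.13, 13.2 and 10.9. In the TAM system of 4 genes 1 was higher in white matter, the ligand Pros1 (14.3, 23.3 and 26.3 CPM). Mertk, a receptor related to Axl, was at 6.89, 7.12 and 8.77. Of 6 osteopontin receptor genes 3 were higher in white matter: Cd44 (3.20, 14.9 and 21.5 CPM), Itgb5 (52.2, 105 and 135) and the scarcer Itga9 (1.72, 3.45 and 3.93). Of 6 partners of lipoprotein lipase 0 were 1.5-fold apart there. Of 7 partners of Itgax, Cd9 and Cst7 3 were higher: Ptgfrn (3.69, 6.25 and 8.47 CPM), Itgb2, the beta chain that pairs with CD11c (10.8, 20.7 and 24.2 CPM), and Ctsc, a cathepsin that cystatin F inhibits (17.7, 29.6 and 29.0).

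Markers of other cells moved with the sections as well. Border macrophage markers, of which 3 of 10 reach a mean of 1 CPM, summed to 15, 22.2 and 45.7 CPM in white matter, with Lyve1 at 0 UMIs there in both O sections. Monocyte and neutrophil markers (2 of 9 measured) summed to 1.23, 3.02 and 4.54 CPM, with Camp and Ngp at 0. Lymphocyte markers (1 of 7) summed to 0, 3.45 and 19.1, of which Jchain gave 0, 0 and 51 UMIs. Astrocyte markers (8 of 8) summed to 2305, 3488 and 3947 CPM, and Gfap alone was at 245, 698 and 991. Choroid plexus markers summed to 2180, 5739 and 2508 CPM in white matter, and to 4057, 4952 and 12731 over whole sections. The part of these cells in the levels of Axl, Cd9, Lyz2 and Spp1 was not tested.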

How the data were processed

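For each section the authors deposited UMI counts, whole numbers with no scaling, covering 31053 genes and 4992 barcodes. Space Ranger 2.0.0 is the tool per the file headers, and mm10 the build per the submitters' processing notes. How reads shared by near-identical genes were treated is not given in the labels. Spots with at least 3000 UMIs were kept, so tissue was not taken from the images, and doublets were not called, as spots are not single cells.

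Spots of all sections were clustered together with scanpy 1.11.5 and igraph 0.11.9 (2000 variable genes, scaled within sections, 30 principal components, 15 neighbours, Leiden resolution 0.8). The variable genes left out the members and the companion, astrocyte, immune and sex-linked lists. Oligodendrocyte, precursor and other cell lists were not left out. Of 21 clusters 15 were named, and 14 had at least 50 spots in every section. Counts were summed per section or region and divided by all UMIs (CPM). The 1.5-fold counts use log2(CPM + 1), which understates ratios of scarce genes, and a region-matched ratio is the mean over the 14 regions. Ratios with intervals come from the counts, with no pseudocount. Levels have exact Poisson intervals, and ratios and shares exact binomial ones (scipy 1.17.1). A count of 0 was given a limit of 3 counts. The counting and ratio steps were checked on simulated data. TMM factors came from edgeR 4.0.16, used for scaling only.

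Groups followed the titles and treatment labels. With 1 section per group no test was run. The members, lists and alternatives were chosen with earlier results of these data known. Genes named are the 10 members, the 3 most abundant and the 3 with the largest region-matched ratios of each list, as far as they bear on a result, and the 3 genes most like each member. Alternatives were other spot minimums, pseudocounts, filters, scalings, fold sizes, clusterings and region weights. Added after seeing the data were leaving out rich spots, leaving out the unnamed cluster led by Vip and AY036118, white matter as spots with at least 2% oligodendrocyte marker UMIs, and the bins by those markers. Coordinates are from the GENCODE annotation of GRCm38, counted from 1, and promoter windows from RefSeq. A few genes that these rules name are not reported here.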

Additional observations from a re-analysis of the deposited data

Results flagged for a closer look

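Barcodes under 3000 UMIs, which no comparison uses, numbered 1583, 1494 and 1660 in Y-Ctrl, O-Ctrl and O-Ex. In those of O-Ex, 3 members were above the level in both control sections, with intervals that do not overlap. How many of all genes meet this rule was not counted, so the 3 have no background to stand beside. Lyz2 was at 39.0 CPM there (52 UMIs), against 10.3 and 14.6 CPM in Y-Ctrl and O-Ctrl. Spp1 was at 31.5 CPM (42 UMIs), against 9.47 and 11.4. Cd9 was at 66.8 CPM (89 UMIs), against 37.0 and 34.1. What tissue these barcodes cover was not tested.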

How the results depend on the processing

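The members' median turned sign under 1 alternative, for O-Ex over O-Ctrl over whole sections with TMM scaling (-0.0078). Of 930 values of single members under an alternative, 839 stayed within the counting interval and 91 moved beyond it, and 17 had the other sign, of which Spp1 in white matter for O-Ex over O-Ctrl (-0.19 at a resolution of 1.5) alone had a log2 ratio over 0.1 in size to begin with. For O-Ctrl over Y-Ctrl over whole sections, a pseudocount of 5 CPM gave 4 members (median log2 ratio 0.50), and a size of 2-fold gave 2. Within regions that comparison gave 1 member at a pseudocount of 5 (median 0.42), 3 among genes of mean 10 CPM or more, 2 at 2-fold and 3 without white matter, and the mean CPM over regions gave a median of 0.70. In white matter taken as spots with at least 2% oligodendrocyte marker UMIs its median was 1.14. For O-Ex over O-Ctrl the count of 1 became 0 over whole sections at a pseudocount of 5, without mitochondrially encoded genes, with TMM scaling and at 2-fold, and 0 within regions at a pseudocount of 5, at 2-fold and with the mean CPM over regions. In white matter its count of 0 became 1 lower at a resolution of 1.5 (median 0.0063) and 1 higher by the 2% rule. For O-Ex over Y-Ctrl the whole-section median was 0.56 at a pseudocount of 5 and the count 4 at 2-fold. Within regions it gave 2 members at a pseudocount of 5 (median 0.55), 5 with TMM scaling, 3 at 2-fold and 5 without white matter, with medians of 0.84 at a pseudocount of 0.5, 0.87 with spots of at least 5000 UMIs and 0.84 with regions weighted by spots. In white matter its median was 1.36 at a resolution of 1.5 and 1.76 without the richest spots. A larger pseudocount lowers the ratio of scarce genes by construction, and for the other settings the cause was not tested. Counts over all genes, higher and lower, moved as well. Over whole sections O-Ctrl over Y-Ctrl gave 172 and 78, and 66 and 31 at a pseudocount of 5, 52 and 31 among genes of mean 10 CPM or more and 59 and 16 at 2-fold. O-Ex over O-Ctrl gave 241 and 44, and 85 and 25, 90 and 15, and 50 and 19 under the same settings. O-Ex over Y-Ctrl gave 534 and 101, and 178 and 40, 181 and 40, and 129 and 20. Within regions O-Ctrl over Y-Ctrl gave 119 and 41, and 43 and 9 at a pseudocount of 5, 193 and 75 at 0.5, 37 and 13 at 10 CPM and 39 and 4 at 2-fold. O-Ex over O-Ctrl gave 66 and 29, and 19 and 17, 135 and 42, 36 and 8, and 9 and 16. O-Ex over Y-Ctrl gave 210 and 37, and 56 and 10, 350 and 75, 87 and 17, and 42 and 5, besides 143 and 66 with TMM scaling.

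No paired analysis was possible because each group has 1 section and the labels carry no replicate numbers, and for the same reason no replicate could be left out. Depth limits Itgax and Cst7 most: in Y-Ctrl they rest on 12 and 22 UMIs. Section plane, batch and animal cannot be told apart from the groups.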
